A study of Arabidopsis thaliana with 12 samples.

Results

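The genes described here had several exons, but not the whole gene, in the lists of features that differed between gold-treated and control *Arabidopsis thaliana* roots. A gene was taken where its transcript cluster, the array's unit for 1 gene, was absent from the list of changed genes and at least 2 of its exons were in the list of changed exons. In all, 430 genes with 1120 exons met this rule, of 2663 genes with 4900 listed exons that carry a chromosome. Absence from the gene list does not show that a gene's overall signal was unchanged, since that list holds only the genes that passed its criteria.

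The gold group was roots of 12-day-old Col-0 seedlings kept for 12 h in a 10 ppm gold solution (HAuClO4 in the labels, chloroauric acid in the study's methods) at pH 4.2. The control group was roots of seedlings of the same ecotype and age kept for 12 h in distilled water at pH 4.2. Both groups were grown hydroponically in MS medium and then held without nutrients, so that the lack of nutrients is common to both. RNA was hybridised to AraGene-1_0-st arrays, 3 arrays per group from 3 biological replicates. Per the study methods, the RNA of a replicate came from many seedlings together. These 6 arrays were deposited as 12 samples, since each was summarised once over genes and once over exons.

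An exon on this array is a stretch of a transcript with its own probes. All values below are the authors' averages over the 3 arrays of a group, on the log2 scale. A difference is the gold average minus the control average, so that a difference of 1 is a doubling and a positive one means higher in gold. No value per array was used here, so the spread between replicates is not given and no test was run. Every listed exon had already passed the authors' limits on fold change and p-value for this same contrast, so that the sizes and directions given here describe the genes chosen by the list and are not independent evidence of a response. The brighter of the 2 group averages is used to describe signal, and an exon with a brighter average under 6 is called dim. Signals of different exons come from different probes, so signals are given to describe sets of exons and do not rank transcript levels. For genes given by 1 value per group, that value is the median over the gene's listed exons and is called a median average. With 3 or more listed exons, the gap between the 2 median averages can be larger or smaller than the median of the exon differences. The label root could not be checked against root markers, because the lists hold only features that differed.

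As background, plant genes are transcribed as a chain of exons and introns, and alternative splicing or alternative start and end sites can change some exons of a gene without the rest. Exon signals can also move together with the level of the whole transcript. Roots grow through division of cells in the meristem, then through expansion, wall building and the laying down of hydrophobic barriers, and root cells take up and store metal ions through membrane transporters. Members are therefore described in this order, with the signalling and stress genes after them.

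Of the 430 genes, 246, or 57.2%, had all their listed exons lower in gold, against 48.9% of all genes with a listed exon. A further 158, or 36.7%, had all of them higher, against 50.1% of all genes with a listed exon. The remaining 26, or 6.05%, had exons in both directions, against 1.01% of all genes with a listed exon. That background is low by construction, since most of those genes had 1 listed exon and could not have both directions. Only 1 such gene was left when exons with a brighter signal under 6 were set aside. By exons, 691 (61.7%) were lower in gold, against 45.1% of all listed exons, and 429 were higher, against 54.9% of all listed exons. Among genes with a single listed exon and no gene-level listing, 55.4% of 1532 were lower. Among the 497 genes listed at the gene level that also had several listed exons, 30.6% were lower and 1 had exons in both directions. The rule itself separates these sets by the same contrast, so the shares are descriptive.

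Most differences were small. The median size over the 1120 exons was 1.21 on the log2 scale, or 2.31-fold, with quartiles of 1.09 and 1.45. Of these exons, 532 (47.5%) had a difference under 1.2, close to the listing limit. Only 198 (17.7%) differed by at least 3-fold, against 32.1% of all listed exons. The exons of genes that were listed at the gene level and had several listed exons had a median size of 1.57, and 48.8% of them differed by at least 3-fold. The largest difference of any member exon was 4.19.

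The sets differed in the share of dim exons. The median brighter signal was 7.66 over the member exons and 6.31 over the single exons, and 18.8% of the member exons were dim, against 42.9% of the single ones. Exons of genes listed at the gene level that had several listed exons had a median of 8.74, with 7.5% dim. At the limit of the rule, the 279 genes with exactly 2 listed exons had a median difference in size of 1.25 and a median brighter signal of 7.11, and the 1532 genes with 1 listed exon had 1.21 and 6.31. The 151 genes with 3 or more exons had 1.19 and 8.25, and 66.4% of their exons were lower in gold.

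**Figure D1:**
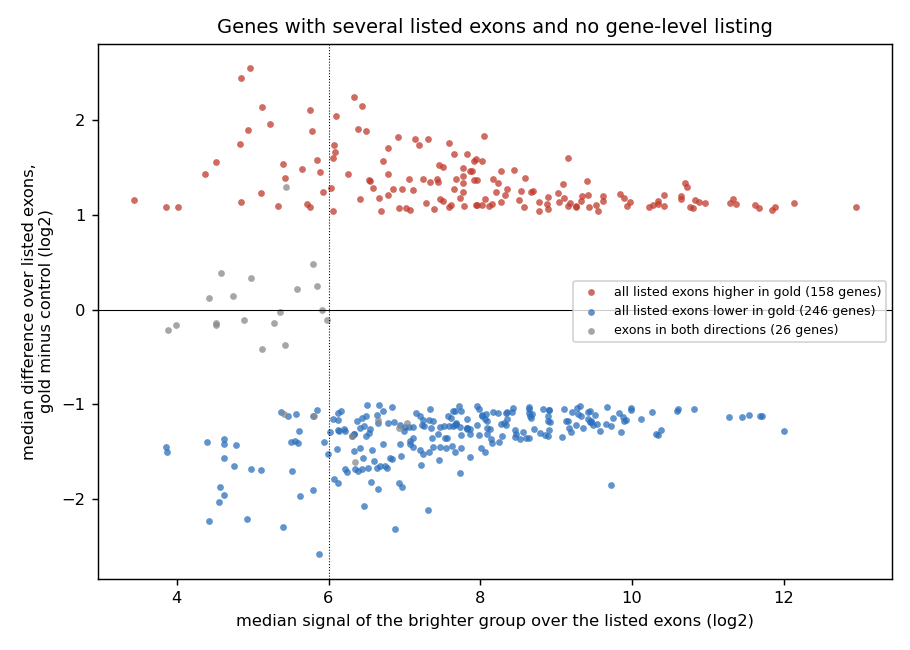
Median difference over the listed exons of each gene (vertical axis, gold minus control, log2) against the median signal of the brighter group (horizontal axis, log2), 1 point per gene, coloured by direction, with a dotted line at a signal of 6. The 246 lower and 158 higher genes lie beyond 1 in size, while the median of most of the 26 genes with exons in both directions lies near 0 and 21 of these 26 are dim.

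The number of listed exons per gene was 2 for 279 genes, 3 for 95, 4 for 26, 5 for 16, 6 for 9, 7 for 1 and 8 for 4. In 112 genes the identifiers of the listed exons ran without a gap, and the tables analysed here give no exon positions. Members lay on all chromosomes, with 122 on chromosome 1, 77 on 2, 78 on 3, 59 on 4 and 94 on 5. On chromosome 3, 35 genes were lower and 41 higher, whereas lower genes outnumbered higher ones on each other chromosome. A transcript cluster named several loci in 23 genes, and the signal of these cannot be assigned to 1 locus.

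The genes with the most listed exons are given first among the single genes. Exons that did not pass the listing limits are not seen, so the values do not show how even a difference was along a gene. ALDH7B4, a stress-inducible aldehyde dehydrogenase, had averages of 11.75, 11.58, 11.91, 11.86, 11.61, 11.76, 10.97 and 11.08 in gold, against 10.71, 10.51, 10.85, 10.77, 10.54, 10.71, 9.83 and 9.72 in control. Its 8 differences lay between 1.04 and 1.36. WRKY6, a transcription factor of senescence and of the phosphate response, had 5 exons with gold averages between 11.50 and 12.65, against 10.42 to 11.57 in control, and differences between 1.01 and 1.09. ASN1, an asparagine synthetase induced in the dark and by low sugar, had 6 exons higher by 1.01 to 1.80.

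Among the lower genes, AT1G74770, annotated as a zinc ion binding protein, had 8 exons with averages of 8.83, 8.88, 8.25, 9.26, 7.59, 8.36, 7.42 and 7.97 in gold, against 10.01, 10.08, 9.40, 10.27, 9.15, 9.53, 8.75 and 9.22 in control. Its differences ran between -1.56 and -1.01. The cluster AT1G24320, which names a mannosyl-oligosaccharide glucosidase and a second locus, also had 8 lower exons, with differences between -1.33 and -1.08. TGG2, a myrosinase that splits glucosinolates, had 5 exons with differences between -2.19 and -1.27.

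Single exons could stand far from the rest of their gene. Of the 143 genes with 3 or more exons in 1 direction, 4 had an exon whose difference was at least 1 beyond the next. PLDP2, a phospholipase D that acts in lipid turnover under phosphate shortage, had 6 exons higher by 1.02 to 1.22 and a seventh with 6.85 in gold against 2.66 in control, a difference of 4.19. AT5G52790, a CBS domain protein, had 7 exons with differences between -1.73 and -1.19 and an eighth with 4.52 in gold against 7.79 in control, a difference of -3.27. The far exon of CYP72A9, a cytochrome P450, had 5.65 in gold against 3.05 in control, and that of AT5G64170 had 7.10 in gold against 4.60 in control.

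**Figure D2:**
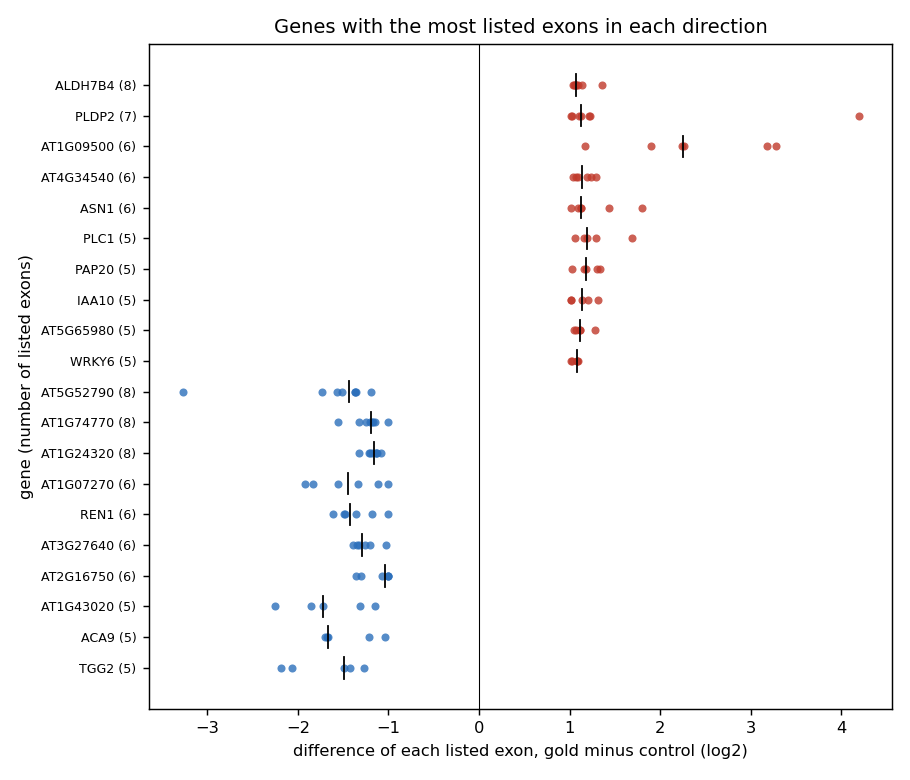
Difference of each listed exon (horizontal axis, gold minus control, log2) for the 10 higher and the 10 lower genes with the most listed exons, 1 row per gene with its number of exons, and a black bar at the gene's median. Only exons that passed the listing limits are shown, and the far exons of PLDP2 at 4.19 and AT5G52790 at -3.27 stand apart.

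By size, the largest median difference upward was that of AT1G17710, a phosphatase of the phosphate-starvation response, with 4.96, 4.86 and 6.62 in gold, against 3.42, 2.30 and 4.07 in control. AT3G07250, which pairs a nuclear transport factor domain with an RNA recognition motif, had 4.79 and 4.89 in gold, against 1.78 and 3.00 in control. AT1G09500, a Rossmann-fold protein, combined many exons with a large size, with 6 exons higher by 1.17 to 3.28. Downward, AT4G03610, a metallo-beta-lactamase domain protein, had 3.44 and 3.13 in gold, against 6.69 and 5.05 in control. TZP, a zinc knuckle protein that acts in light-dependent growth, had 6.71 and 2.40 in gold, against 7.94 and 5.81 in control. In AT1G17710, AT3G07250 and AT4G03610, most of these averages were under 6.

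Word patterns in the symbol and description sorted the members into 15 lists, in which 237 genes fell. The lists were chosen with earlier results of these data known, so their shares are descriptive. The list of hypothetical or unnamed genes held 48 of them. Of these, 24 were lower (50.0%, against 57.2% over all members), 19 higher and 5 in both directions. Over all 430 genes the median difference was -1.09, and the median size was 1.24. Among all genes with a listed exon, those listed at the gene level were higher in 492 of 701 and lower in 208. Those with a single listed exon and no gene-level listing were higher in 684 of 1532 and lower in 848. The counts of these sets within each list are to be read against these shares.

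**Figure D3:**
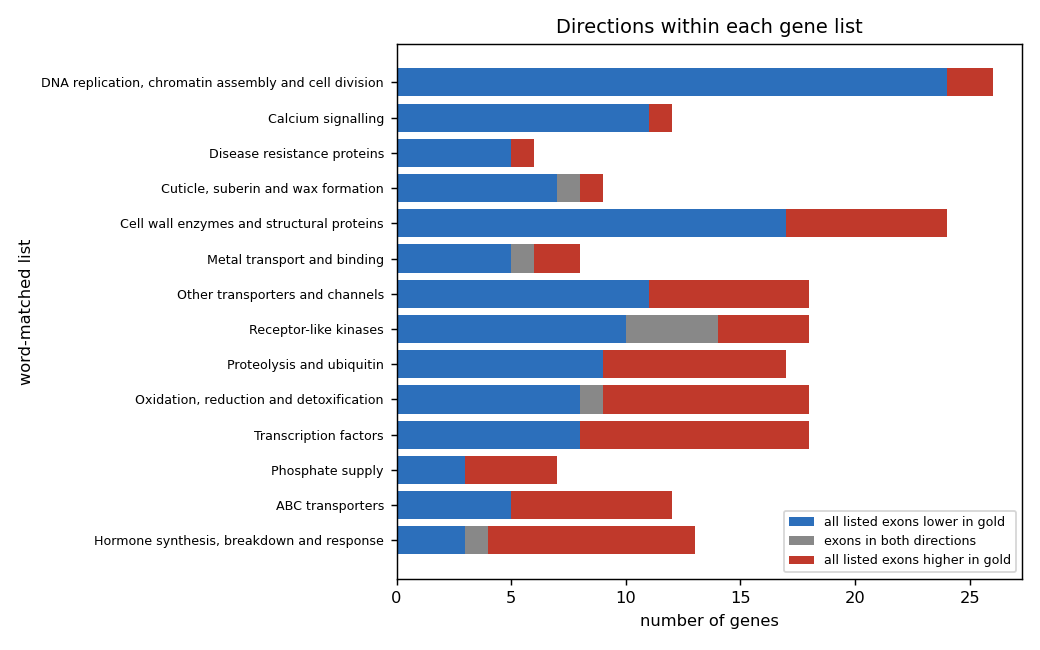
Number of genes in each list (horizontal axis) by the direction of their listed exons, with all exons lower in gold at the left of each bar, both directions in the middle and all higher at the right. The list of hypothetical or unnamed genes is left out, and 24 of 26 DNA replication and cell division genes and 11 of 12 calcium genes were lower.

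Genes of DNA replication, chromatin assembly and cell division formed the largest named list and lay almost wholly on the lower side. All listed exons were lower in gold in 24 of its 26 genes, with a list median of -1.22, against 57.2% lower over all members. The same words found 31 genes with a single listed exon, of which 30 were lower, and 1 gene listed at the gene level, which was lower. The list's median brighter signal was 7.58, near the 7.59 of all members.

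The lower genes cover successive steps of replication. At origins, the origin recognition complex, CDC6 and CDT1 load the replicative helicase before synthesis starts. AT1G07270, a CDC6 protein, had 6.47, 5.99, 2.70, 5.04, 6.39 and 5.72 in gold, against 7.81, 7.82, 4.62, 6.60, 7.40 and 6.84 in control. Each of its 6 exons was at least 1.01 lower. CDT1A had 8.37, 6.70 and 5.72 in gold, against 9.63, 7.82 and 7.12 in control. ORC2, a subunit of the recognition complex, had 6.62, 6.06 and 7.17 in gold, against 7.64, 7.25 and 8.24 in control. The exons of these 3 loading factors had differences between -1.92 and -1.01.

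At the fork, MCM10, which helps to activate the helicase, had 5.68, 6.24 and 6.46 in gold, against 7.09, 7.38 and 7.63 in control. RPA70D, a large subunit of the protein that coats single-stranded DNA, had 6.58, 7.95, 7.65 and 6.23 in gold, against 8.25, 9.12, 8.79 and 7.79 in control. EMB2780, the catalytic subunit of DNA polymerase delta, had the largest median of the list, with 3.34 and 2.08 in gold against 5.38 and 4.47 in control, and both exons were dim. POLA3, the small subunit of primase, was also dim, with median averages of 3.00 in gold and 4.40 in control. FAS1, a subunit of the chromatin assembly factor that places histones behind the fork, had 8.06 and 9.06 in gold against 9.53 and 10.18 in control.

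Kinesins, motors that move along microtubules, were the other large class in the list. AT5G60930 had 7.33, 4.70, 6.33 and 8.64 in gold, against 8.98, 6.32, 7.51 and 9.74 in control. POK1, which positions the division plane, and KINESIN-12B, a motor of the phragmoplast in which the new cell plate forms, each had 3 lower exons, with median differences of -1.16 and -1.01. Further kinesins in the list were AT2G37420, AT2G47500, AT5G23910, AT4G14330, AT3G10310 and AT5G27550, with median differences between -1.25 and -1.07. Some kinesins carry cargo in cells that do not divide, so the word kinesin alone does not mark division. The cyclins CYCB3;1 and CYCD4;2 had median differences of -1.22 and -1.18, and the cyclin-dependent kinase cdc2cAt had -1.33.

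Other lower genes in the list act in recombination and repair, namely MSH5 in meiotic crossing-over, the RecQ helicases RECQI1 and AT1G27880, and BARD1. The 2 higher genes were RAD23C, a ubiquitin receptor that carries the name of a repair protein, and TSA1, a protein of endoplasmic reticulum bodies that was named for binding the TONSOKU protein. RAD23C had median averages of 6.44 in gold and 4.29 in control, and TSA1 had 7.78 in gold and 6.28 in control. AT3G27640, annotated as denticleless and outside the word pattern, had 6 lower exons, with 6.12, 8.36, 7.29, 8.77, 6.32 and 8.79 in gold against 7.38, 9.71, 8.68, 9.80, 7.64 and 9.99 in control. In animals the denticleless protein directs CDT1 to degradation during replication.

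A few more division genes that the words missed were chosen after their values were seen, and no count rests on them. PRL, the MCM7 subunit of the replicative helicase, had 5.65, 8.28 and 8.24 in gold, against 7.02, 9.31 and 9.28 in control. PLE, a microtubule bundler of the phragmoplast, had 3.17, 8.74, 8.10 and 8.04 in gold, against 4.37, 9.97, 9.17 and 9.37 in control. RPA70B, like RPA70D a single-strand binding subunit, had 7.83 and 7.66 in gold, against 9.22 and 8.95 in control. In whole roots, fewer cells of a type and less RNA per cell cannot be told apart.

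**Figure D4:**
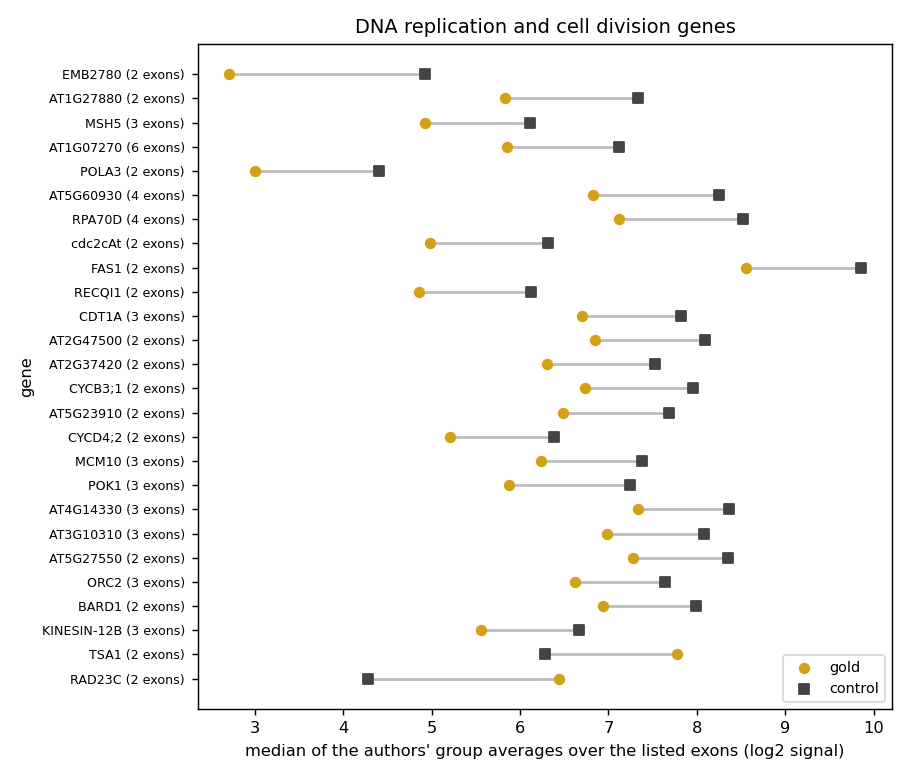
Median of the authors' group averages over the listed exons (horizontal axis, log2 signal) for the 26 genes of the DNA replication and cell division list, with gold as circles and control as squares, 1 row per gene. Gold lies left of control in 24 genes and right of it in TSA1 and RAD23C.

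Genes matched by words for cuticle, suberin and wax formation, all hydrophobic barriers, were lower in 7 of 9, against 57.2% over all members. Of the others, 1 was higher and 1 had both directions, and the list median was -1.22. CER5 and WBC11 are ABC transporters that export wax and cutin precursors. CER5 had 8.32, 7.11 and 6.84 in gold, against 9.36, 8.31 and 8.09 in control. WBC11 had 6.55 and 9.66 in gold, against 7.89 and 10.81 in control. PDR4, a related exporter of cutin precursors, had 6.37, 5.91 and 4.53 in gold, against 7.89, 7.25 and 6.05 in control. All 3 exporters in this list were thus lower in every listed exon.

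Most of the other genes of the list were lower too. CER3, which forms wax alkanes, had 7.16, 9.67 and 7.57 in gold, against 8.64, 10.70 and 8.62 in control. CYP86A4, a fatty acid hydroxylase of cutin synthesis, had 7.51, 8.32 and 8.09 in gold, against 8.76, 9.65 and 9.17 in control. BDG1 had 7.52 and 6.72 in gold, against 8.78 and 7.89 in control, and the CER1-like AT2G37700 had 5 exons with differences between -2.20 and -1.06. The higher gene, AT5G42830, is an acyltransferase of a family that acts on many substrates, so it may not belong to the cuticle or to suberin. Among genes with a single listed exon the same words found 4 lower and 6 higher, and among genes listed at the gene level 1 lower and 4 higher.

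Cell wall genes were lower in 17 of 24 (70.8%), against 57.2% over all members, with 7 higher and a list median of -1.20. Those listed at the gene level were lower in 14 and higher in 18, and those with a single listed exon were lower in 44 and higher in 31. Expansins, which loosen walls during growth, were represented by EXPA11, EXPA14 and EXPB1, with median averages of 4.54, 7.29 and 6.03 in gold, against 6.25, 8.64 and 7.47 in control. XTH4, which cuts and rejoins xyloglucan, had 7.18 in gold and 8.46 in control. LAC3, a laccase, had 6.37, 9.12 and 10.58 in gold, against 7.81, 10.39 and 11.62 in control. TBL33, a xylan acetyltransferase, had 5.02, 7.51, 6.75, 8.32 and 6.81 in gold, against 6.20, 8.86, 8.19, 9.42 and 8.61 in control. ESK1, an acetyltransferase of the same family that the words placed among the unnamed genes, had 4 lower exons, with differences between -1.35 and -1.01. Another member of the family, TBL22, was higher, with median averages of 6.93 in gold and 5.86 in control.

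The cluster AT2G28670, a dirigent-domain protein of the Casparian strip that also names a second locus, had median averages of 9.56 in gold and 10.61 in control. Higher wall genes included BXL1, a beta-xylosidase, with median averages of 10.42 in gold and 8.81 in control and a median difference of 1.21. UGE1 and UGE3, which interconvert UDP-glucose and UDP-galactose, had 8.16 and 6.96 in gold, against 7.04 and 5.68 in control. PGIP1, an inhibitor of fungal pectin-degrading enzymes, had 8.23 in gold and 6.89 in control. Pectin-degrading enzymes lay on both sides, with AT1G67750 and AT4G13710 lower and AT1G48100 and AT1G10640 higher.

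Among 12 ABC transporters, 7 were higher and 5 lower (41.7%), against 57.2% lower over all members. Of the lower ones, 3 were the cuticle exporters above. With the same words, 8 of 11 genes with a single listed exon were higher, against 684 of 1532 over all such genes. Of those listed at the gene level, 5 of 6 were higher, against 492 of 701. MRP1 and MRP2 pump glutathione conjugates into the vacuole. MRP1 had 11.74, 10.84 and 10.89 in gold, against 10.60, 9.77 and 9.58 in control, and MRP2 had 8.25, 10.80 and 9.94 in gold, against 6.50, 9.70 and 8.94 in control. MRP14, of the same subfamily, had 7.34, 7.31 and 8.36 in gold, against 5.33, 5.96 and 7.29 in control. ATH6 had 10.70, 11.01 and 8.01 in gold, against 9.51, 9.67 and 6.53 in control. All 3 members of the MRP subfamily among these genes were higher in every listed exon. PDR11 and PGP14 were the other lower members, with median averages of 2.20 and 6.37 in gold, against 4.43 and 7.59 in control.

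Of 8 genes for metal transport or binding, 5 (62.5%) were lower, near the 57.2% of all members, with 2 higher and 1 in both directions. ZIP3, a zinc uptake transporter, had median averages of 8.28 in gold and 9.43 in control. NRAMP3, which releases iron from the vacuole, had 9.26 in gold and 8.16 in control. The CorA-like magnesium transporter AT1G29830 had 3 lower exons, with a median difference of -1.39, and the copper transport protein AT5G52710 had 3 between -1.81 and -1.06. IREG2, a vacuolar transporter of nickel and cobalt, had 5.39, 6.48 and 5.68 in gold, against 4.15, 7.95 and 6.93 in control, so that 1 exon was higher and 2 were lower. Genes matched by the same words with a single listed exon were lower in 8 and higher in 7.

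Other transporters and channels were lower in 11 of 18 (61.1%), near the 57.2% of all members, and higher in 7. Those with a single listed exon were lower in 26 and higher in 38. Lower members included the nitrate transporter AT2G26690, with 3 exons between -1.71 and -1.05, the aquaporin PIP2;8, with median averages of 6.67 in gold and 7.99 in control, and CNGC14, a cation channel of root hairs and gravitropism, with 8.74 in gold and 9.83 in control. Higher members included the sulfate transporters SULTR2;1 and SULTR3;4, with median averages of 7.47 and 9.03 in gold, against 6.30 and 7.80 in control, and the urea transporter DUR3, with 8.60 in gold and 7.20 in control. Another sulfate transporter, AST91, was lower, with 5.53 in gold and 6.64 in control. AT5G65980, an auxin efflux carrier family protein, had 5 exons higher by 1.05 to 1.28. In this list, genes listed at the gene level were higher in 21 of 26, against 492 of 701 over all such genes.

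Genes for phosphate supply were higher in 4 of 7 and lower in 3, against 36.7% higher over all members and 50.1% over all genes with a listed exon. With the same words, genes with a single listed exon were higher in 5 of 7, and genes listed at the gene level in 2 of 3. The shares over all such genes were 684 of 1532 and 492 of 701. SPX3, a repressor within phosphate signalling, had 5.85 and 5.01 in gold, against 4.74 and 3.33 in control, and both exons were dim. RNS1, a ribonuclease that frees phosphate from RNA, had 7.36 and 7.50 in gold, against 5.90 and 6.19 in control. PAP20, a purple acid phosphatase, had 6.73, 7.73, 7.73, 9.54 and 8.25 in gold, against 5.55, 6.43, 6.57, 8.21 and 7.22 in control. These and AT1G17710, most of whose averages were under 6, were the 4 higher genes. The phosphate exporter AT1G35350 of the PHO1 family had 4 exons with differences between -1.18 and -1.03. PPC4, a phosphoenolpyruvate carboxylase, had 2.52 and 3.70 in gold, against 5.42 and 5.39 in control, and both exons were dim.

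Hormone genes leaned the other way from the members as a whole. Of these, 9 of 13 were higher, against 36.7% over all members and 50.1% over all genes with a listed exon. Of the rest, 3 were lower and 1 had both directions, and the list median was 1.14. With the same words, genes with a single listed exon were higher in 16 of 30, against 684 of 1532 over all such genes. Those listed at the gene level were higher in 19 of 25, near the 492 of 701 over all genes listed there. The higher genes include TOE3, a cluster that names more than 1 locus. ICS2, an isochorismate synthase of the salicylate pathway, had 7.48, 6.10 and 4.92 in gold, against 5.43, 3.70 and 3.48 in control. CKX5, which breaks down cytokinin, had 8.53, 7.31 and 6.71 in gold, against 7.17, 5.51 and 4.86 in control. AT2G35990, annotated as the cytokinin-activating enzyme LOG2, had median averages of 6.38 in gold and 4.48 in control. IAA10, a repressor of auxin response, had 5 exons higher by 1.01 to 1.31, and LOX1, a lipoxygenase, had median averages of 12.96 in gold and 11.88 in control. The lower genes were GA3OX1, which makes active gibberellin, with 8.46 in gold and 9.66 in control, HP6, a phosphotransfer protein that dampens cytokinin signalling, with 7.13 in gold and 8.28 in control, and 2A6, annotated as a putative ethylene-forming oxidase, with 8.14 in gold and 9.45 in control. The words missed auxin genes on both sides, chosen after their values were seen. TAR2 was lower, with differences of -1.24 and -1.35, and IBR3 was higher in each listed exon, by 1.01 to 1.79.

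Transcription factors were split, with 10 of 18 higher and 8 lower (44.4%), against 57.2% lower over all members. WRKY45, which activates phosphate uptake genes, had 11.60 and 12.68 in gold, against 10.40 and 11.62 in control. NF-YA10, a CCAAT-binding subunit, and PTF1, a TCP factor, had median averages of 6.07 and 7.59 in gold, against 4.46 and 5.83 in control. Lower factors included MYB48, with 7.62 in gold and 8.68 in control, and BEE2, a bHLH factor of brassinosteroid response, with 4.95 in gold and 6.21 in control. AGL12 and AGL14, both MADS-box factors of roots, lay on opposite sides, at 7.14 and 6.70 in gold, against 8.23 and 5.65 in control. The clusters TOE3 and AT4G34540 name 2 loci each, so their higher signal cannot be assigned to 1 gene. Among factors listed at the gene level, 32 were higher and 7 lower, against 492 higher and 208 lower over all genes listed at that level.

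Genes of oxidation, reduction and detoxification were higher in 9 of 18, lower in 8 (44.4%, against 57.2% over all members) and in both directions in 1. CYP71A13, an enzyme of camalexin synthesis, had 3 exons higher by 1.34 to 2.27, and AT2G37770, an aldo-keto reductase, had median averages of 5.12 in gold and 2.98 in control. NDA2, an alternative NADH dehydrogenase, had 8.16 in gold and 6.78 in control. The peroxidase RHS19, named for its specificity to root hairs, had 5.47, 9.02 and 11.36 in gold, against 6.79, 10.35 and 12.42 in control. A second peroxidase, AT1G44970, had 4 lower exons, with differences between -1.35 and -1.10, and CYP702A5 had 4 between -1.54 and -1.09. The monooxygenases FMO GS-OX1 and FMO GS-OX2, which oxidise glucosinolates, lay on opposite sides, at 4.75 and 4.51 in gold, against 6.44 and 2.95 in control. GLU1, a glutamate synthase, entered this list only through the word ferredoxin. Genes of this list that were listed at the gene level were higher in 54 of 73, near the 492 of 701 over all such genes.

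Proteolysis genes were lower in 9 of 17 (52.9%), near the 57.2% of all members, and higher in 8. Subtilases, secreted proteases, lay on both sides, with SLP3, ATSBT5.2 and SBT4.12 lower and AT1G32950 and its neighbour SBT3.3 higher. SBT3.3, which is linked to immune priming, had 4 exons higher by 1.03 to 1.42, at median averages of 11.29 in gold and 10.20 in control. SBT4.12 had median averages of 10.72 in gold and 12.01 in control.

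Receptor-like kinases, which sense ligands at the cell surface, were lower in 10 of 18 (55.6%), near the 57.2% of all members. They were higher in 4, with both directions in 4. The higher genes were CRK13, CRK14, EMB1290 and WAKL10, and EMB1290 had median averages of 8.05 in gold and 6.21 in control. CRK13 and CRK14 are neighbours of the cysteine-rich family, and near-identical copies in such families could share probes. CRK26 of that family was lower, with differences of -1.20 and -1.13. The wall-associated kinase WAK4 was lower too, with -1.02 and -1.08. The lower genes included MRH1, which acts in root hair growth, with 6.76 in gold and 8.09 in control, and AT1G05700, with 4 exons between -1.82 and -1.06. Among kinases with a single listed exon, 25 were lower and 6 higher. Genes matched as disease resistance proteins were lower in 5 of 6, against 57.2% over all members. Of these 5, AT2G28670 is the dirigent-domain protein given above. Single-exon genes of this list were 5 lower and 5 higher, and genes listed at the gene level were 4 lower and 1 higher. The lower genes included the neighbours AT5G45210 and AT5G45220 with 3 exons each, at 6.50 and 7.55 in gold, against 7.86 and 8.65 in control.

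Calcium signalling genes were lower in 11 of 12, against 57.2% over all members, with a list median of -1.09. CPK22, a calcium-dependent protein kinase, had 4.72, 5.20 and 5.85 in gold, against 6.88, 7.31 and 7.75 in control. MCA2, a mechanosensitive calcium channel, had median averages of 4.76 in gold and 6.65 in control. AT1G73805, a calmodulin-binding protein that RefSeq names SARD1 and that promotes salicylate synthesis, had 9.46 in gold and 10.59 in control. The 1 higher gene was CIPK9, a kinase driven by calcium sensors and linked to potassium supply. It had 5.90 and 5.61 in gold, against 3.00 and 4.30 in control, and both exons were dim. ACA9, a calcium pump known from pollen and outside the word pattern, had 4.35, 4.10, 5.15, 6.28 and 4.96 in gold, against 5.57, 5.80, 6.82, 7.32 and 6.64 in control. PLC1, a phospholipase C also outside the word pattern, had 5 exons higher by 1.06 to 1.69. With the same words, genes with a single listed exon were lower in 11 of 18, and genes listed at the gene level were lower in 2 and higher in 3.

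The 26 genes with exons in both directions were mostly dim, and 1 was left at a signal of at least 6. Their median brighter signal was 5.42, against 7.84 for the higher and 7.61 for the lower genes, and 21 of them (80.8%) were dim, against 15.2% of the higher and 12.6% of the lower genes. By construction their exons lay farther apart, with a median span of 2.72 between the highest and lowest difference. CA2, a carbonic anhydrase, had the widest span, with averages of 6.88, 7.84, 2.43, 5.28, 7.51 and 4.73 in gold, against 5.69, 6.16, 5.66, 6.43, 8.68 and 6.43 in control. Its first 2 exons were higher and the other 4 lower, and only the third was dim.

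LACS1, a long-chain acyl-CoA synthetase of wax and cutin synthesis, had 5.42 in gold against 2.67 in control for 1 exon, and 4.39 in gold against 6.18 in control for the other. AT2G37960, a hypothetical protein, had 6 exons with 5.07, 4.05, 5.10, 5.90, 6.60 and 5.05 in gold, against 3.90, 5.83, 6.11, 7.61, 8.29 and 6.58 in control, of which the first was higher and the rest lower. DML3, a DNA demethylase, had 4.87, 6.72, 4.75, 5.44 and 3.43 in gold, against 2.80, 5.42, 5.77, 3.75 and 2.17 in control, with only the third lower. ER, the receptor kinase ERECTA of organ growth, had 5.60 and 5.09 in gold, against 6.73 and 3.97 in control. In DML3, IREG2 and AT2G37960, the exons that went against the rest of the gene were dim. In DML3 all exons but the second were dim, and in AT2G37960 the second exon, which went with the rest, was dim too.

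**Figure D5:**
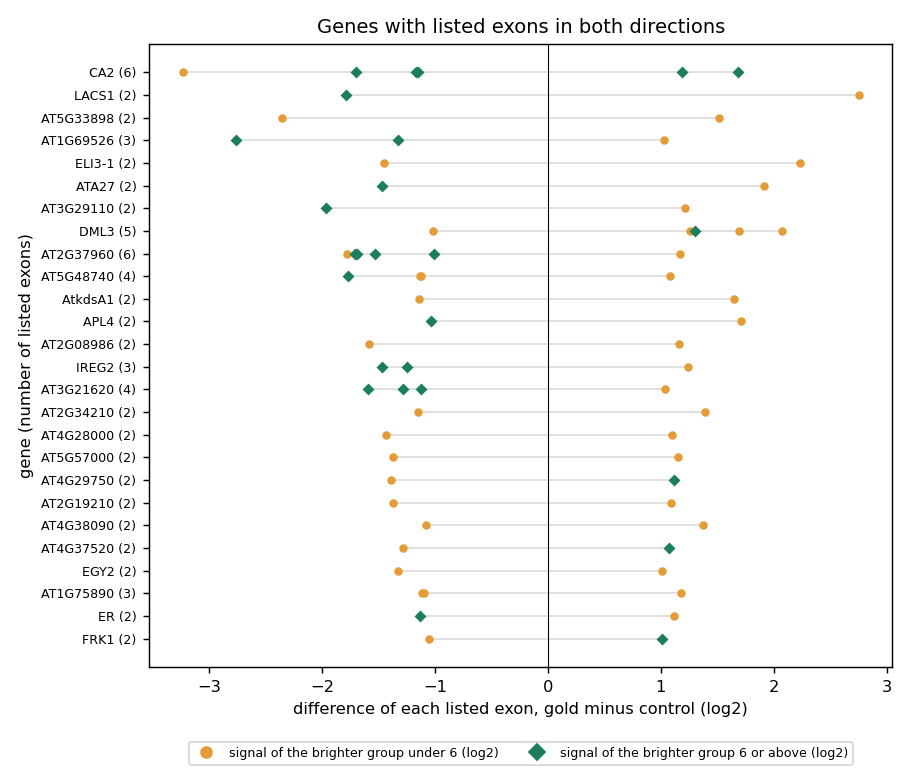
Difference of each listed exon (horizontal axis, gold minus control, log2) in the 26 genes with exons in both directions, 1 row per gene, joined by a grey line. Circles mark dim exons (brighter group under 6) and diamonds brighter ones, and CA2 spans the widest range, from -3.23 to 1.68.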

How the data were processed

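RNA of 3 gold and 3 control root replicates was hybridised to AraGene-1_0-st arrays. Per the labels and the study's methods, the authors summarised probes with RMA in Affymetrix Expression Console and compared groups in the Transcriptome Analysis Console, whose tables give bi-weight averages. The deposited log2 signals are these group averages, and the annotation is tair10. The deposited fold changes, p-values and FDR are the authors' own comparison and were not used.

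Each exon was assigned to a gene through its transcript cluster, leaving out 77 of 4977 exon features without a chromosome, and the gene list held 800 features. Differences of averages were computed with Python 3.11.15, numpy 2.4.6 and pandas 2.3.3, plotted with matplotlib 3.10.9, and the counting steps were tested on simulated data. Of 450 loci named by members, 448 matched RefSeq names for TAIR10.1. Lists were word patterns. A RING pattern was tightened after its matches were seen, since it had caught 3 genes by letters inside longer words. Named genes were the 10 per direction with the most exons, the 10 with the largest medians, the 10 with exons in both directions farthest apart and up to 6 per list; others, given as list members or marked, were chosen after their values were seen. Members and lists were chosen with earlier results of these data known. Arrays have no read depth; their number limits the precision. Promoter sequences were not used here.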

Additional observations from a re-analysis of the deposited data

How the results depend on the processing

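Of the alternatives tried, 3 moved a count or share. Asking for 3 or more listed exons left 151 genes and 562 exons, with 63.6% of the genes lower in gold and 8 genes with exons in both directions. Keeping only exons with a brighter signal of at least 6 gave 62.2% lower and 1 gene with exons in both directions, over 312 genes and 835 exons. Keeping only exons that differed by at least 3-fold left 34 genes and 77 exons, of which 55.9% of the genes were lower and 2 had exons in both directions. Joining by locus, counting identical averages once, also within a gene (added after the data were seen), or keeping clusters that name 1 locus gave between 406 and 431 genes and between 57.0% and 58.1% lower. No paired analysis was possible because the columns used here are group averages that carry no replicate number, and values of single arrays were not used, and for the same reason replicates were not left out in turn. Without values of single arrays, differences near the listing limit cannot be set against the spread between replicates, and dim exons carry the least signal above background.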

Other observations

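Member genes whose cluster names 1 locus were also neighbours in 12 pairs, in the RefSeq order of protein-coding genes. Of these pairs, 9 had the same direction, counting FRK1 and AT2G19210, which both had exons in both directions. Over all members 57.2% were lower and 36.7% higher, so some pairs share a direction by these shares alone. No expected number of such pairs was computed. Beside those named above, WRKY45 and the Rossmann-fold gene AT3G01980 were both higher, with median differences of 1.13 and 1.46, and so were RAD23C and LBD41, a LOB domain factor induced by low oxygen, which had a median difference of 1.17. The coatomer subunit AT3G15980 and the sulfate transporter SULTR3;4 were higher by 1.65 and 1.23. PDR11 and AT1G66960, annotated as a lupeol synthase, had median differences of -2.23 and -1.83. In 3 pairs the neighbours lay on opposite sides, among them MIPS3, a myo-inositol phosphate synthase, at -1.13 and the sulfate transporter SULTR2;1 at 1.17. Whether neighbours share probes was not tested.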
